A study of Homo sapiens with 4 samples.

Results

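The genes described here are 40 genes of the amino acid response, chosen by name: the transcription factor ATF4, its partners and targets, the enzymes of serine and one-carbon synthesis, and cytosolic tRNA synthetases with XPOT. The choice was made with earlier results of these data known. All 40 were found among the 26506 gene symbols of the tables. RNA sequencing was performed on HeyC2 and SKOV3, established human ovarian cancer cell lines, each with 1 control library and 1 TET1 library, 4 in all. Control cells received an empty plasmid and TET1 cells 3 µg of pCMV6/TET1, which carries the full-length DNA demethylase TET1 under a viral promoter, by lipofectamine 2000, and the cells were then kept under 400 µg/ml Geneticin. Every group therefore shares transfection and drug selection, the control libraries carry the wild-type label, and the sources used here do not say whether the cells were pools or single clones. With 1 library per condition no difference has a replicate check, and no test between conditions was made. Where a 95% interval is given, it covers counting error only, from an exact binomial (Clopper-Pearson) interval on estimated fragment numbers.

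ATF4 is a transcription factor made in larger amount when the initiation factor eIF2 is phosphorylated, as happens when amino acids run short or unfolded protein accumulates in the endoplasmic reticulum. It binds DNA with partners of the C/EBP family and turns on genes that make, import and load amino acids, together with its own feedback inhibitors. Serine made from glucose feeds glycine and the folate carriers of one-carbon units, and the tRNA synthetases join each amino acid to its tRNA.

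The DNA letters best known for ATF4 and C/EBP pairs, TGATGNAA on either strand, were looked for in the promoters of the members, from 250 bases before to 50 bases after each RefSeq start site on GRCh38.p14. Promoters were given for 33 of the 40 members, in 54 windows. At least 1 window of 12 members (36.4%) held the letters, against 4.46% of the 27305 genes with a promoter, and 12 of the 54 member windows held them against 3.62% of all 35116 windows. The narrower form TGATGCAA, which is contained in the first, was found for 9 members (27.3%) and for 1.08% of all genes. The members were chosen by name as ATF4 partners and targets, so their higher share is not an independent finding. The shares by gene also do not allow for the number of windows per gene, which was larger for the members. All 12 matches are shown. They come from 4 of the 5 roles, all but serine and one-carbon synthesis, and from members with large and with small changes. Each is written 5′ to 3′ on the strand of the gene, 30 bases long, with the match in capitals, which reads TTNCATCA where the letters lie on the other strand.
ATF3: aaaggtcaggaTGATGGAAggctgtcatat
CEBPG: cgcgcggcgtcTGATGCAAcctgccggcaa
CHAC1: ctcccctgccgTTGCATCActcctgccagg
ASNS: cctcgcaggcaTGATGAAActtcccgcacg
BCAT1: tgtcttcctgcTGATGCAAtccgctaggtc
AARS: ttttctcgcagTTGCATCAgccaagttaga
GARS: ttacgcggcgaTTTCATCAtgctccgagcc
MARS: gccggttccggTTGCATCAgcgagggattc
NARS: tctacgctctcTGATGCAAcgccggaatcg
TARS: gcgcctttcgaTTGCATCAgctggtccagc
IARS: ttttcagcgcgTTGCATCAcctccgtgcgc
CARS: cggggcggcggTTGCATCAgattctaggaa
The windows lie at ATF3 chr1:212565205-212565234, CEBPG chr19:33374060-33374089, CHAC1 chr15:40953251-40953280, ASNS chr7:97872458-97872487, BCAT1 chr12:24949131-24949160, AARS chr16:70289675-70289704, GARS chr7:30594834-30594863, MARS chr12:57488053-57488082, NARS chr18:57621804-57621833, TARS chr5:33440956-33440985, IARS chr9:92293692-92293721 and CARS chr11:3057407-3057436. The match began 68 bases before the start site in ASNS, 209 bases before it in CHAC1 and 42 bases before it in CEBPG. In MARS and CARS it began 4 and 2 bases before the start site, and in TARS and NARS it began at bases 3 and 15 of the transcript. A match is a description of letters and not evidence of binding.

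The control and TET1 libraries were first compared for the plasmid gene and for the scaling. TET1 was at 0.200 FPKM in the HeyC2 control and 0.519 FPKM in HeyC2 TET1, and at 0.430 and 1.80 FPKM in the SKOV3 libraries. It was thus higher in the TET1 library of each line, on about 13.9 and 32.7 estimated fragments in HeyC2 and 29.5 and 115 in SKOV3. FPKM, the fragments of a gene relative to transcript length and sequencing depth, had been multiplied in each TET1 library by 1 constant, 3.23 in HeyC2 and 1.35 in SKOV3, which set GAPDH to its control value; all values here are given with that multiplication undone. GAPDH was then at 5417 FPKM in the HeyC2 control and 1675 FPKM in HeyC2 TET1, and at 2248 and 1671 FPKM in SKOV3. The libraries held an estimated 6650000 to 7325000 fragments. The lines kept their own levels of ERBB2, at 20.1 and 23.8 FPKM in HeyC2 and 1282 and 1464 FPKM in SKOV3, and WT1 and MUC16 were at or near 0 in all 4 libraries. The keratin genes KRT19 and KRT7 went from 255 and 1537 FPKM in the SKOV3 control to 0.460 and 22.0 FPKM in SKOV3 TET1, whereas KRT7 went from 290 to 1125 FPKM in HeyC2. The other epithelial markers did not fall in SKOV3: KRT8 was at 560 and 775 FPKM, KRT18 at 193 and 255, EPCAM at 15.4 and 16.1 and CDH1 at 2.24 and 6.30. In HeyC2 KRT8 went from 476 to 386 FPKM and KRT18 from 378 to 379 FPKM. Of the 13 line markers, 9 passed the filter on low values in HeyC2 and 11 in SKOV3, and their summed share of FPKM went from 1.84% to 1.01% in HeyC2 and from 1.09% to 0.776% in SKOV3. VIM, the mesenchymal filament vimentin, took most of that share in HeyC2, at 7496 and 2927 FPKM, and went from 1223 to 835 FPKM in SKOV3, with changes relative to all genes of -1.41 and -0.74 on the log2 scale. CDH2, the other mesenchymal marker of the list, went the other way, with 0.61 in HeyC2 and 0.20 in SKOV3. Of the markers tested, 3 were at least 1.5-fold higher and 2 lower in HeyC2, and 3 higher and 3 lower in SKOV3. The part of this marker change in the results for the members was not tested.

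The comparison asked how the amino acid response genes differed between TET1 and control cells in each line. As a group they lay lower in HeyC2 TET1 and higher in SKOV3 TET1. The change of each gene is log2((TET1 + 1)/(control + 1)) for genes whose mean over the 2 libraries of a line was 1 FPKM or more, minus the median of all such genes, 0.058 in HeyC2 and 0.192 in SKOV3; this is called the relative change, and it understates the change of low genes. In HeyC2, 20 of the 38 members that passed the filter were at least 1.5-fold lower, against 9.17% of 11894 genes tested, and 0 were at least 1.5-fold higher, against 12.5% of genes. The median relative change of the members was -0.62, and 35 of 38 lay below the all-gene median. In SKOV3, 24 of 38 members were at least 1.5-fold higher, against 20.7% of 13013 genes, and 3 were at least 1.5-fold lower, against 18.2%. Their median was 1.02, and 33 of 38 lay above the all-gene median. No p-value stands behind these counts. A lower level can come from fewer cells of a kind or from less RNA per cell, which cannot be told apart in bulk RNA.

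**Figure D1:**
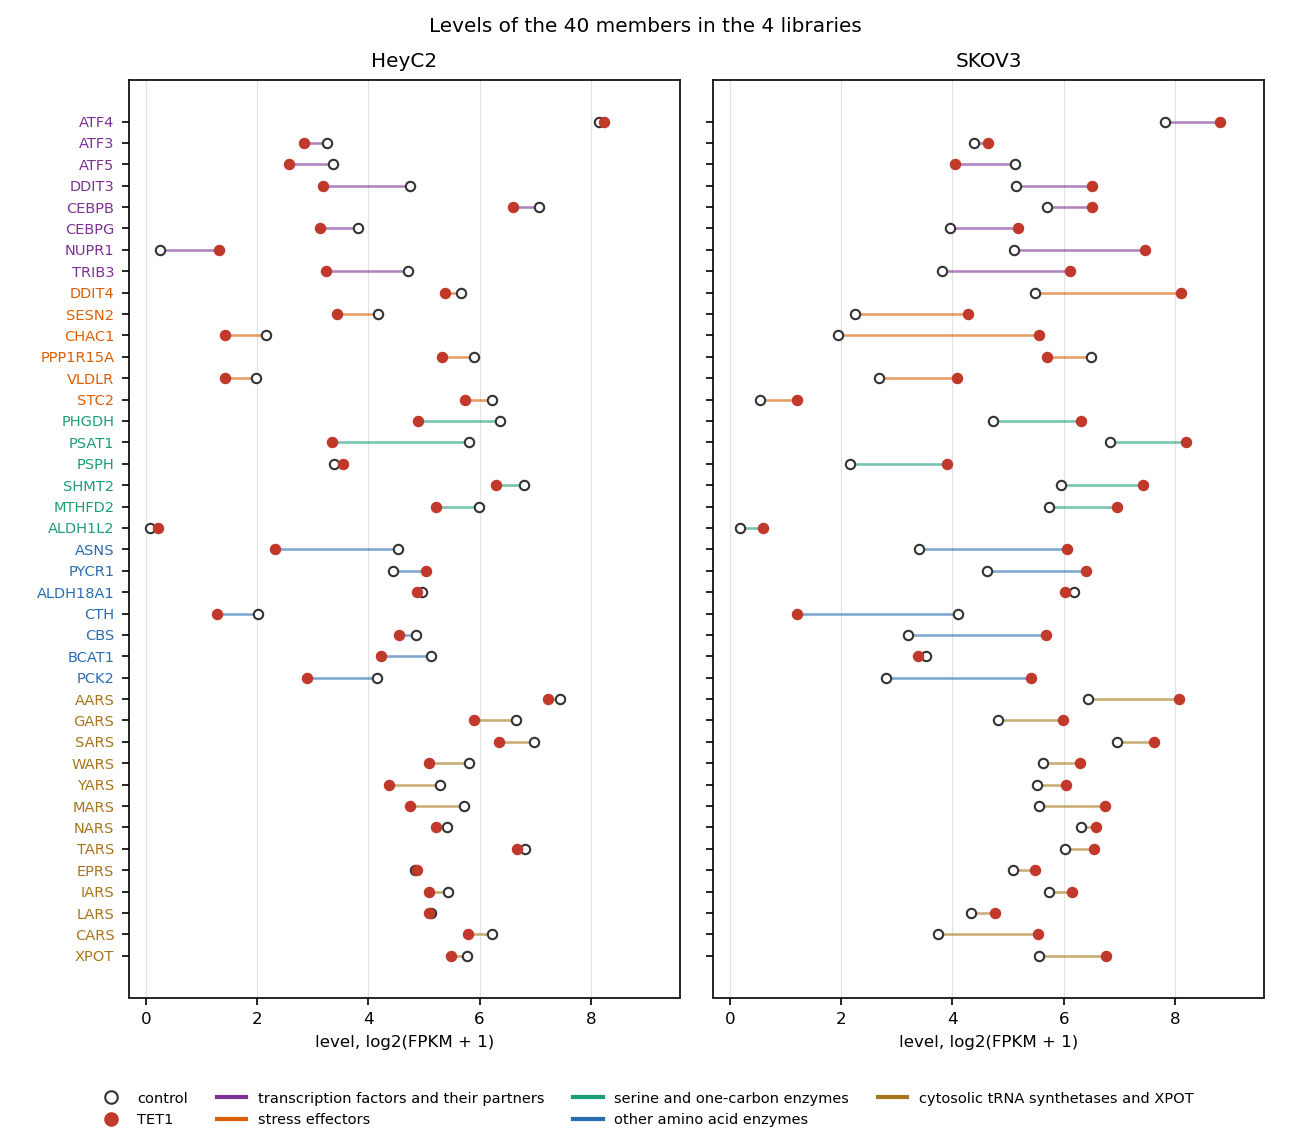
Level of each of the 40 members as log2(FPKM + 1) in the control library (open circles) and the TET1 library (red circles) of HeyC2 (left) and SKOV3 (right), 1 library each, with line colours by role. In HeyC2 most red circles lie to the left of the open ones, by most for PSAT1 and ASNS, and in SKOV3 most lie to the right, by most for CHAC1, with CTH the longest line in the other direction.

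Of the 37 members that passed the filter in both lines, 13 were at least 1.5-fold lower in HeyC2 and at least 1.5-fold higher in SKOV3, a pattern that 1.38% of the 11134 genes tested in both lines had. These 13 were DDIT3, CEBPG, TRIB3, SESN2, CHAC1, VLDLR, PHGDH, PSAT1, MTHFD2, ASNS, PCK2, GARS and MARS, from every role. With no limit on size, 29 of the 37 were below the all-gene median in HeyC2 and above it in SKOV3, against 20.7% of genes. A further 3, ATF5, PPP1R15A and CTH, were at least 1.5-fold lower in both lines, which 2.54% of genes were. The level was highest of the 4 libraries in SKOV3 TET1 for 26 of 37 members, against 37.3% of genes, and lowest in HeyC2 TET1 for 20 of 37, against 27.0%. No member was highest in HeyC2 TET1, but the share of all genes highest there was not counted, so this is a description only. Across the 37 members, which are not independent, the relative changes of the lines had a Pearson r of -0.18 and a Spearman rho of -0.17, against 0.14 and 0.15 across all 11134 genes.

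**Figure D2:**
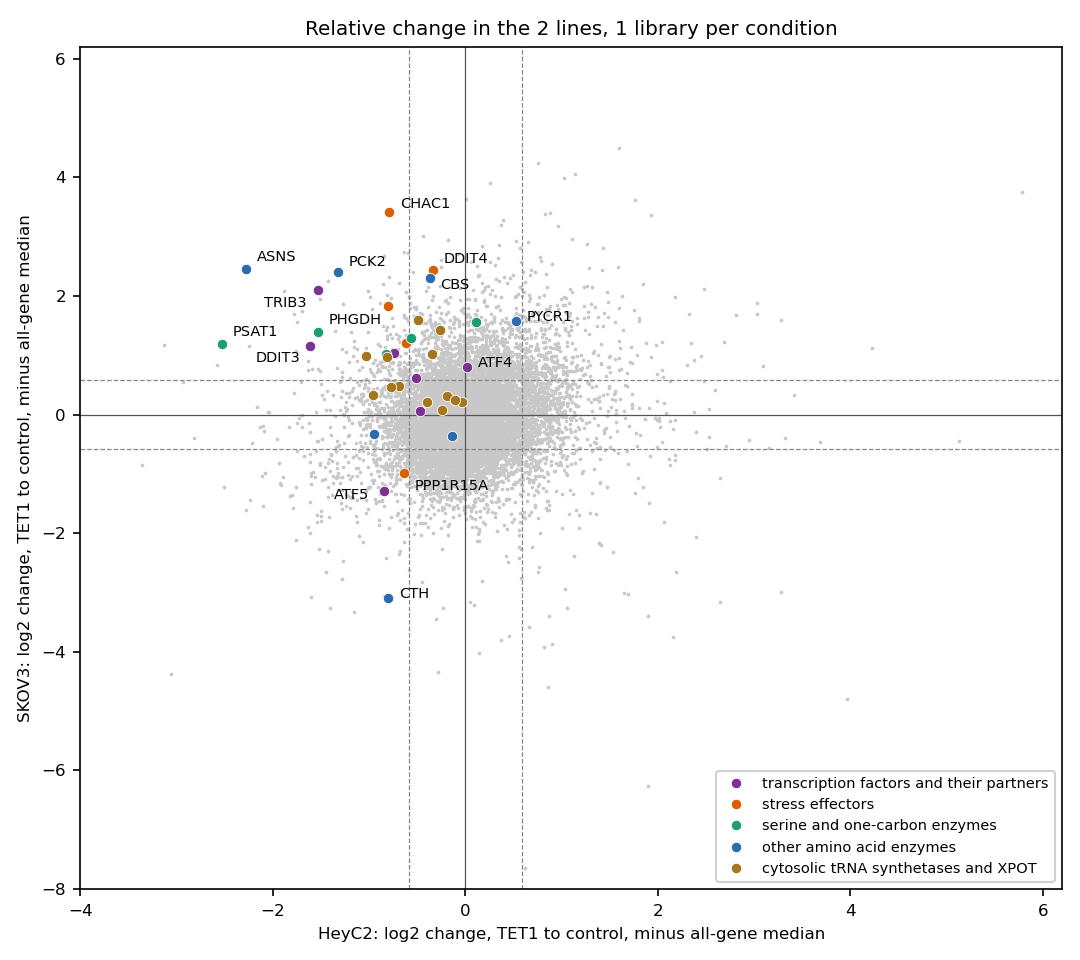
Relative log2 change in HeyC2 (horizontal) against SKOV3 (vertical) for the members (coloured by role) and the other genes tested in both lines (grey), 1 library per condition, with dashed lines at 1.5-fold. In all, 13 members lie in the upper left field beyond both dashed lines, and CTH, ATF5 and PPP1R15A lie in the lower left field.

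ATF4 itself (chromosome 22, 39915700 to 39918688 on GRCh37) was at 283 FPKM in the HeyC2 control, 298 FPKM in HeyC2 TET1, 224 FPKM in the SKOV3 control and 448 FPKM in SKOV3 TET1. Its mRNA was therefore nearly level in HeyC2, with a relative change of 0.02 (95% counting interval -0.06 to 0.10), and higher in SKOV3, at 0.80 (0.72 to 0.88). ATF4 is controlled in large part by translation, and the protein was not measured in these files. DDIT3, which encodes CHOP, a C/EBP family partner that ATF4 turns on, was at 25.8 FPKM in control and 8.08 FPKM in TET1 cells of HeyC2 and at 34.4 and 89.8 FPKM in SKOV3. The relative changes were -1.62 (-2.12 to -1.16) and 1.17 (0.91 to 1.42). TRIB3, a pseudokinase that holds ATF4 in check, was at 25.1 and 8.42 FPKM in HeyC2 and at 13.1 and 68.1 FPKM in SKOV3. Of the 4 libraries HeyC2 TET1 was the lowest and SKOV3 TET1 the highest. The relative changes of TRIB3 were -1.53 (-1.80 to -1.26) and 2.10 (1.90 to 2.31).

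CEBPG, a dimer partner of ATF4, was at 13.1 and 7.77 FPKM in HeyC2 and at 14.4 and 35.2 FPKM in SKOV3, with relative changes of -0.74 and 1.04. CEBPB, another C/EBP family member, had -0.51 and 0.62, so it passed 1.5-fold in SKOV3 and not in HeyC2. After correction for GC content and transcript length CEBPB had -0.63 and 0.41, and both calls changed. ATF3, a stress-induced factor of the same family as ATF4, stayed within 1.5-fold in each line, at -0.47 and 0.06. NUPR1, a small stress-induced chromatin protein, was nearly silent in HeyC2, at 0.190 and 1.4995 FPKM on about 7 and 51 fragments, and did not pass the filter there. Its counting interval in HeyC2, 0.70 to 1.22, lay above 0, against the direction of most members. In SKOV3 NUPR1 went from 33.6 to 175 FPKM, a relative change of 2.16 (2.07 to 2.25). ATF5, whose translation is controlled like that of ATF4, went the other way in SKOV3, from 34.0 to 15.5 FPKM, with relative changes of -0.85 in HeyC2 and -1.28 in SKOV3. By role the 8 factors and partners had a median of -0.74 over 7 genes in HeyC2, 4 of them lower, and of 0.92 over 8 genes in SKOV3, 6 higher and 1 lower.

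Among the stress effectors, CHAC1, an enzyme that breaks down glutathione, had the highest relative change of all members in SKOV3. CHAC1 (chromosome 15, 41245160 to 41248710) was at 3.49 FPKM in the HeyC2 control, 1.70 FPKM in HeyC2 TET1, 2.84 FPKM in the SKOV3 control and 46.0 FPKM in SKOV3 TET1. The controls were thus alike and low, and the SKOV3 TET1 library stood alone. The relative change was 3.42 (3.00 to 3.88) in SKOV3, where 24 of 13013 genes had a higher one, and -0.79 (-1.42 to -0.18) in HeyC2, on about 35 and 15 fragments. DDIT4, an inhibitor of the growth kinase mTORC1, was at 49.5 and 40.7 FPKM in HeyC2 and at 43.5 and 276 FPKM in SKOV3, a relative change of -0.33 and 2.44. SESN2, which also restrains mTORC1 when leucine is scarce, was at 17.1 and 9.78 FPKM in HeyC2 and at 3.78 and 18.5 FPKM in SKOV3. In the controls it was higher in HeyC2, and under TET1 it was higher in SKOV3. The relative changes of SESN2 were -0.81 and 1.84.

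VLDLR, a lipoprotein receptor, had relative changes of -0.61 and 1.21, from 2.97 to 1.70 FPKM in HeyC2 and from 5.43 to 16.0 FPKM in SKOV3. After the correction for GC content and length its change in HeyC2 was -0.51, within 1.5-fold. PPP1R15A, which encodes GADD34, the phosphatase subunit that removes the phosphate from eIF2, was at 58.8 and 39.2 FPKM in HeyC2 and at 88.9 and 50.7 FPKM in SKOV3. It was lower in TET1 in each line, by -0.63 and -0.99, and its HeyC2 value was -0.52, within 1.5-fold, on the deposited values. STC2, a secreted glycoprotein, was expressed in HeyC2, at 73.8 and 52.6 FPKM with a relative change of -0.54, and did not pass the filter in SKOV3, at 0.460 and 1.31 FPKM. By role the 6 effectors had a median of -0.62 in HeyC2, 4 of 6 lower, and of 1.84 over 5 genes in SKOV3, 4 higher and 1 lower.

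The enzymes that make serine from glucose gave the most negative change in HeyC2. PSAT1, the aminotransferase of the pathway (chromosome 9, 80912041 to 80945009), was at 55.1 FPKM in the HeyC2 control and 9.15 FPKM in HeyC2 TET1. In SKOV3 it was at 112 FPKM in the control and 294 FPKM in TET1. The relative change was -2.52 (-2.78 to -2.28) in HeyC2, where 12 of 11894 genes had a lower one, and 1.19 (1.10 to 1.27) in SKOV3. PHGDH, the dehydrogenase that starts the pathway, was at 81.3 and 28.7 FPKM in HeyC2 and at 25.5 and 78.2 FPKM in SKOV3. The levels of PHGDH thus exchanged places, the HeyC2 control and SKOV3 TET1 being the high libraries. Its relative changes were -1.53 and 1.39. PSPH, the phosphatase that completes serine, was nearly level in HeyC2, at 9.43 and 10.7 FPKM (0.11, interval -0.22 to 0.44), and was higher in SKOV3, from 3.46 to 14.0 FPKM (1.56).

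SHMT2, which moves a carbon unit from serine to folate in mitochondria, had relative changes of -0.56 and 1.30, from 110 to 77.1 FPKM in HeyC2 and from 60.5 to 172 FPKM in SKOV3. Its HeyC2 value passed 1.5-fold, at -0.59, after the correction for GC content and length. MTHFD2, the next enzyme of mitochondrial folate, had -0.83 and 1.03, from 62.5 to 36.3 FPKM and from 52.3 to 123 FPKM. An opposite-strand gene, SLC4A5, overlaps 30.1% of the exon bases of MTHFD2, and the strand setting of the counting is not given in the sources used here. ALDH1L2, a mitochondrial folate dehydrogenase, was at 0.060 to 0.513 FPKM in the 4 libraries and passed the filter in neither line. Over the 5 enzymes that passed, the median was -0.83 in HeyC2, 3 of 5 lower, and 1.30 in SKOV3, 5 of 5 higher. Genes of folate and glycine metabolism outside the members stood near the all-gene median. Over 12 and 14 of them the medians were 0.06 and 0.04, with 1 higher and 1 lower in HeyC2 and 2 higher and 3 lower in SKOV3. AMT, an aminomethyltransferase that breaks down glycine, had relative changes of 0.70 and 1.70, GCAT, which makes glycine from threonine products, had -0.63 in HeyC2, and MTHFD1, the cytosolic folate enzyme, had -1.24 in SKOV3.

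ASNS, asparagine synthetase, was the enzyme with the widest difference between the lines. ASNS (chromosome 7, 97480989 to 97501854) was at 22.2 FPKM in the HeyC2 control and 3.99 FPKM in HeyC2 TET1, and at 9.61 FPKM in the SKOV3 control and 65.4 FPKM in SKOV3 TET1. The relative changes were -2.28 (-2.62 to -1.95) and 2.45 (2.23 to 2.69), with 16 genes lower in HeyC2 and 111 higher in SKOV3. PCK2, the mitochondrial phosphoenolpyruvate carboxykinase, followed at 16.9 and 6.43 FPKM in HeyC2 and 6.02 and 41.4 FPKM in SKOV3. For ASNS and PCK2 alike the SKOV3 TET1 library was the highest, whereas the lowest was HeyC2 TET1 for ASNS and the SKOV3 control for PCK2. PCK2 had relative changes of -1.32 and 2.40. CBS, which joins serine to homocysteine, was at 28.0 and 22.4 FPKM in HeyC2 and at 8.17 and 50.5 FPKM in SKOV3, relative changes of -0.37 and 2.30.

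CTH, the next enzyme of that route to cysteine, ran against CBS in SKOV3. CTH (chromosome 1, 70876901 to 70905534) was at 16.2 FPKM in the SKOV3 control and 1.30 FPKM in SKOV3 TET1, on about 223 and 17 fragments, a relative change of -3.09 (-3.50 to -2.61). In HeyC2 it was at 3.05 and 1.42 FPKM, with -0.80 (-1.32 to -0.26). PYCR1, which completes proline, was above the all-gene median in each line, at 0.53 and 1.58, and ALDH18A1, which starts proline, was slightly below it, at -0.14 and -0.36. BCAT1, the cytosolic branched-chain aminotransferase, went from 33.9 to 17.8 FPKM in HeyC2 (-0.95) and from 10.5 to 9.46 FPKM in SKOV3 (-0.32). BCAT1 is the 1 member on the short arm of chromosome 12, at 24962958 to 25102035. Over the 7 enzymes the medians were -0.80, with 4 lower, and 1.58, with 4 higher and 1 lower. Other enzymes of proline and arginine had medians of 0.13 over 6 genes and -0.21 over 8 genes, with ARG2 at 0.71 and PYCRL at 0.34 in HeyC2, and ASL at -0.64 and ALDH4A1 at 0.62 in SKOV3. In HeyC2 1 of the 6 was higher and 0 lower, and in SKOV3 1 of the 8 was higher and 1 lower.

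The cytosolic tRNA synthetases and XPOT, the exporter of tRNA from the nucleus, changed less than the enzymes. All 13 were below the all-gene median in HeyC2, except EPRS and LARS with the values as deposited and EPRS after correction for GC content and length, and 5 of them were at least 1.5-fold lower, with a median of -0.40. All 13 were above it in SKOV3, 5 of them at least 1.5-fold, with a median of 0.47. The highest in SKOV3 was CARS, for cysteine, at 12.4 and 45.4 FPKM in SKOV3 and 73.4 and 54.0 FPKM in HeyC2, with relative changes of 1.60 (1.40 to 1.81) and -0.49. AARS, for alanine, was the most abundant in 3 of the 4 libraries, at 172 and 150 FPKM in HeyC2 and 85.8 and 266 FPKM in SKOV3, with -0.26 and 1.43. MARS, for methionine, had the lowest relative change in HeyC2, at 52.0 and 25.9 FPKM with -1.04 (-1.20 to -0.88), and was at 46.0 and 106 FPKM in SKOV3 with 0.99. GARS, for glycine, followed with -0.82 and 0.97, from 100.1 to 58.7 FPKM in HeyC2 and from 27.3 to 62.4 FPKM in SKOV3. These 4 and XPOT (-0.35 and 1.02) were the members of the role past 1.5-fold in SKOV3.

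A second set of synthetases was lower in HeyC2 without passing 1.5-fold in SKOV3. YARS, for tyrosine, had -0.96 and 0.33, WARS, for tryptophan, -0.77 and 0.47, and SARS, for serine, -0.69 and 0.48. On the deposited values SARS had -0.56 in HeyC2, within 1.5-fold. When centred on the 500 genes nearest in level, YARS, WARS and SARS passed 1.5-fold in SKOV3, at 0.62, 0.78 and 0.85. The remaining 5, NARS, TARS, EPRS, IARS and LARS, for asparagine, threonine, glutamate with proline, isoleucine and leucine, stayed within 1.5-fold in each line, between -0.40 and -0.04 in HeyC2 and between 0.08 and 0.31 in SKOV3. The counting interval of NARS in SKOV3, -0.03 to 0.18, and those of EPRS and LARS in HeyC2, -0.17 to 0.09 and -0.23 to 0.01, included 0. The letters TGATGNAA were found in promoter windows of AARS, CARS, GARS and MARS and of NARS, TARS and IARS, and so in synthetases with the larger and with the smaller changes. The 12 members with the letters had medians of -0.62 in HeyC2 and 0.98 in SKOV3, and the members with a promoter and without the letters had -0.69 over 21 genes and 1.02 over 20 genes.

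**Figure D3:**
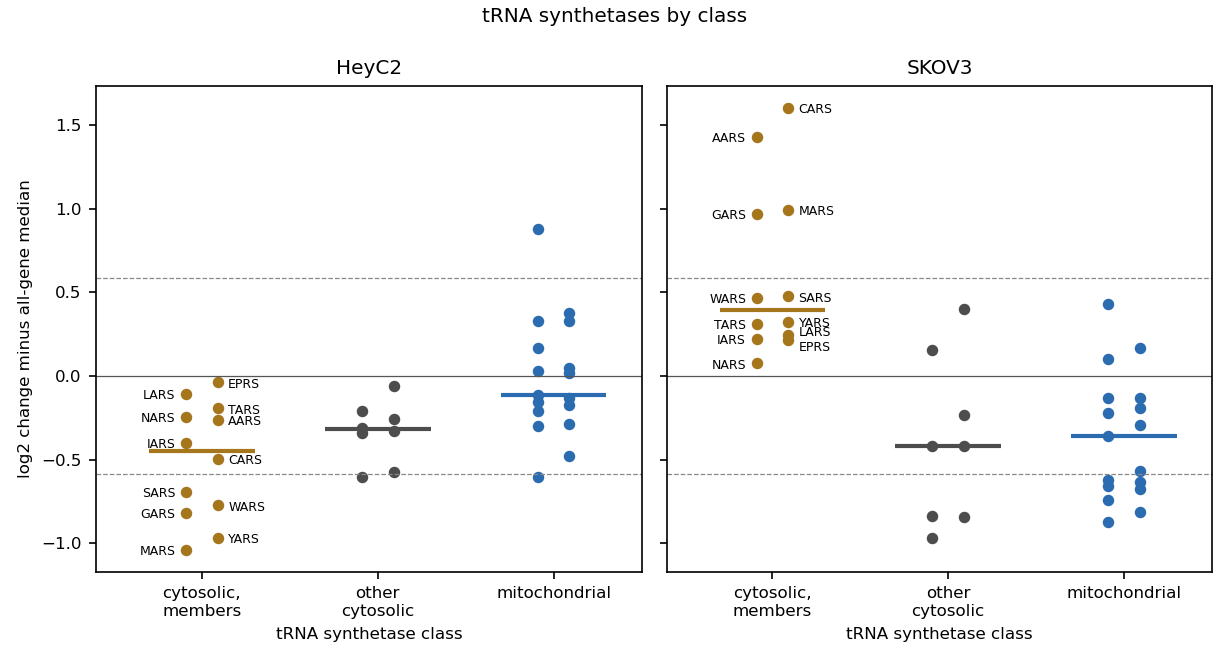
Relative log2 change of 12 cytosolic tRNA synthetases among the members, 8 other cytosolic synthetase genes and 17 mitochondrial ones in HeyC2 (left) and SKOV3 (right), each point a gene in 1 pair of libraries, bars at class medians and dashed lines at 1.5-fold. In SKOV3 all 12 members lie above 0 and the medians of the other classes are -0.42 and -0.36, and in HeyC2 the medians from left to right are -0.44, -0.32 and -0.12. The classes were set with earlier results of these data known.

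The median of the other cytosolic synthetases lay below that of all genes in each line. All 8 lay below the all-gene median in HeyC2, as the 13 members of the role did, and 6 of the 8 lay below it in SKOV3. Over the 8 genes for aspartate, histidine, lysine, glutamine, arginine, valine and phenylalanine, the median was -0.32 in HeyC2, with 1 lower, and -0.42 in SKOV3, with 3 lower and 0 higher. VARS, for valine, had -0.60 and -0.97, QARS, for glutamine, had -0.57 in HeyC2, and FARSB, a phenylalanine subunit, had -0.84 in SKOV3. The 17 mitochondrial synthetases, which load tRNA inside mitochondria, had medians of -0.12 and -0.36, with 1 higher and 1 lower in HeyC2 and 0 higher and 7 lower in SKOV3. NARS2 and TARS2 had 0.88 and -0.60 in HeyC2, and WARS2 and CARS2 had -0.87 and -0.81 in SKOV3. The 3 scaffold proteins of the synthetase complex had medians of 0.03 and -0.51, with EEF1E1 at 0.43 and -0.51 and AIMP1 at -0.23 and -0.998. The split of the cytosolic synthetases into members and others was made with earlier results of these data known, so their contrast is not an independent finding. The difference between the classes was not tested.

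DDIT3 and MARS are neighbours that face each other on chromosome 12, at 57910371 to 57915520 and 57869228 to 57911352. Exons of MARS cover 24.3% of the exon bases of DDIT3, and exons of DDIT3 cover 2.32% of those of MARS. Without strand, fragments of the overlap cannot be told apart, so the values of this pair are not independent. A non-coding gene on the same strand covers 99.5% of the exon bases of ASNS in the annotation used here, and 1 covers 14.7% of those of NUPR1. A same-strand entry that the annotation types as an artifact covers 100% of the exon bases of CBS, and a same-strand coding gene, ENSG00000285133, covers 11.6% of those of DDIT3. Smaller overlaps with opposite-strand genes were present for PYCR1, at 19.8%, CEBPB, at 12.6%, and GARS, at 10.9%.

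Of the FPKM summed over all genes, the members took 0.435% in control and 0.306% in TET1 cells of HeyC2. In SKOV3 their share was 0.349% in the control and 0.791% in TET1. This share does not depend on the GAPDH multiplication or on the all-gene median. The synthetases and XPOT made up 0.192% and 0.138% in HeyC2 and 0.144% and 0.275% in SKOV3, the serine and one-carbon enzymes 0.0659% and 0.0320%, then 0.0538% and 0.149%, and the stress effectors 0.0426% and 0.0288%, then 0.0306% and 0.0896%. By this summed share the controls of the lines were closer to each other than the TET1 libraries were. Gene by gene the controls also differed. Relative to all genes, 28 of 39 members lay lower in the SKOV3 control than in that of HeyC2, with a median log2 difference of -0.48. Between the TET1 libraries 29 of 39 lay higher in SKOV3, with a median of 0.90.

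**Figure D4:**
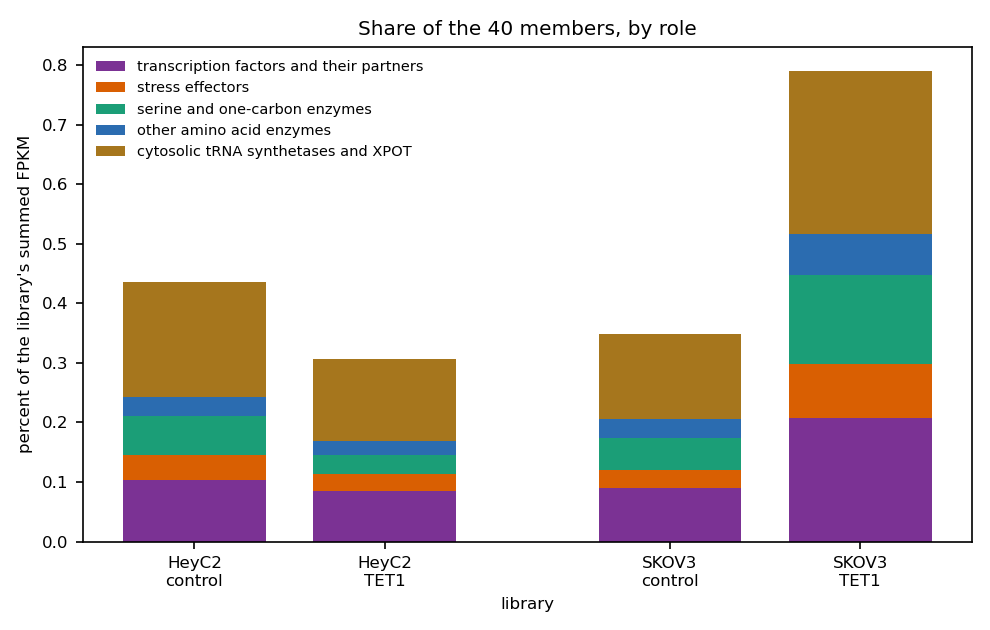
Share of the 40 members in the summed FPKM of each of the 4 libraries, in percent, stacked by role from 0. The bars reach 0.435% and 0.306% in HeyC2 control and TET1 and 0.349% and 0.791% in SKOV3 control and TET1.

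The 16 genes of the eIF2 kinases and the eIF2 pathway had medians of -0.12 in HeyC2, with 1 lower and 0 higher, and -0.09 in SKOV3, with 7 lower and 1 higher. In SKOV3 the lower quartile of the list was -0.72, and 18.2% of all genes tested were lower there. EIF2B3, a subunit of the eIF2 exchange factor, had -0.67 and -0.92. PPP1R15B, the constitutive counterpart of GADD34, had -0.42 in HeyC2, and GCN1, which activates the kinase GCN2, had -0.98 in SKOV3. Phosphorylation of eIF2 cannot be read from RNA. Chaperones and folding genes of the endoplasmic reticulum, which answer to XBP1 and ATF6, had medians of -0.03 and -0.10 over 15 genes, with 1 higher and 1 lower in HeyC2 and 2 higher and 2 lower in SKOV3. PDIA6 and SEL1L had 0.78 and -0.67 in HeyC2, and CALR and XBP1 had -1.26 and 0.86 in SKOV3. Mitochondrial chaperones and proteases had medians of -0.30 and -0.48 over 10 genes, with 0 higher and 1 lower in HeyC2 and 1 higher and 4 lower in SKOV3. LONP1 and HSPA9 had -1.11 and -0.49 in HeyC2, and HSPE1 and DNAJA3 had -1.02 and -0.78 in SKOV3.

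Amino acid transporters, several of them ATF4 targets, shared the direction of the members in HeyC2 and split in SKOV3. Over 10 genes in HeyC2 the median was -0.74, with 5 lower and 2 higher, and over 11 genes in SKOV3 it was 0.26, with 4 lower and 3 higher. SLC7A11, the cystine importer, was at 7.44 and 1.54 FPKM in HeyC2 and at 34.4 and 12.5 FPKM in SKOV3. It was lower in TET1 in each line, with relative changes of -1.79 and -1.58, unlike CHAC1. SLC7A5, the leucine importer, was at 16.0 and 2.76 FPKM in HeyC2 and at 424 and 177 FPKM in SKOV3, with -2.24 and -1.45. SLC6A9, a glycine importer, had 1.52 in SKOV3, from 0.360 to 3.46 FPKM. Other genes named as ATF4 targets had medians of -0.14 over 20 genes in HeyC2, with 3 higher and 4 lower, and 0.32 over 23 genes in SKOV3, with 10 higher and 4 lower. GDF15, a stress hormone, went against the members in HeyC2, from 3.92 to 95.01 FPKM (4.23), and VEGFA, a growth factor for vessels, was lower there, from 57.4 to 9.19 FPKM (-2.58). In SKOV3 the largest were ADM2, a peptide hormone, from 2.59 to 21.6 FPKM (2.46), and KLHL24, a ubiquitin ligase adaptor, from 2.30 to 14.1 FPKM (2.01).

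Without centring, the sign of the HeyC2 member median depended on the multiplication of the TET1 values by 3.23. With that multiplication left in and no median taken off, the member median was 1.09 in HeyC2 and 1.63 in SKOV3, beside all-gene medians of 1.61 and 0.59. With the multiplication undone and no median taken off, it was -0.57 in HeyC2 and 1.21 in SKOV3. Both alternatives were added after seeing the data. On either scale the members stood below all genes in HeyC2 and above them in SKOV3. A constant moves all genes of a library by nearly the same amount, so this order could hardly differ and is not a check.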

How the data were processed

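Total RNA of the 4 samples was sequenced as TruSeq paired-end libraries (2 × 150 bp). Per the labels, the authors aligned reads to hg19 with Bowtie2 2.2.6 and quantified genes with RSEM 1.2.17, and they deposited FPKM, 1 table per cell line. The gene annotation and the strand setting are not given in the sources used here. The values show that each TET1 column had also been multiplied by 1 constant: 100% of 1220 and 2637 distinct values up to 40 FPKM lay on a grid of 0.01 FPKM times that constant, whereas the controls gave 1. It was divided out. Every per-sample column was used.

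Changes were computed with a pseudocount of 1 FPKM and a minimum mean of 1 FPKM, and a gene was counted as higher or lower past 1.5-fold. Depth was estimated from the steps between low FPKM values of genes with 1 transcript, so fragment numbers are approximate. The members, roles and comparison lists were chosen with earlier results of these data known. All 40 members were named, with the 2 largest changes per line from each of 11 comparison lists. Symbols were placed on GRCh37 for 23925 of 26506 genes (90.3%). The steps were tested on simulated data. The alternatives were FPKM as deposited, pseudocounts of 0.1 and 0.01, no filter, a minimum of 5 FPKM, TPM, an upper-quartile centre, a centre of the 500 nearest genes in level, a correction in 20 bins each of GC content and length, limits of 2-fold and 1.2-fold, and member lists without the synthetases and XPOT or without chromosome 12 short-arm genes. Calculations used Python 3.11.15, numpy 2.4.6, pandas 2.3.3, scipy 1.17.1 and matplotlib 3.10.9.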

Additional observations from a re-analysis of the deposited data

Results flagged for a closer look

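In 13 members the single HeyC2 comparison was at least 1.5-fold lower and the single SKOV3 comparison at least 1.5-fold higher relative to all genes. The difference between the lines was not tested. As the relative change in SKOV3 minus that in HeyC2, on the log2 scale, it was largest for ASNS, at 4.73, and for CHAC1, at 4.21. The serine and gluconeogenic enzymes PSAT1, PCK2 and PHGDH differed by 3.71, 3.73 and 2.92, and MTHFD2 by 1.85. Among the factors and their partners the differences were 3.63 for TRIB3, 2.79 for DDIT3 and 1.78 for CEBPG. SESN2 differed by 2.65 and VLDLR by 1.83. The synthetases MARS and GARS differed by 2.03 and 1.79.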

How the results depend on the processing

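The member medians kept their sign in each line under each alternative that took off a centre, and none of 681 values of single members that were recomputed turned a 1.5-fold call to the other sign. Of the 13 members lower in HeyC2 and higher in SKOV3, 12 or 13 passed in every scaling, pseudocount and filter alternative that took off a centre, except the minimum of 5 FPKM, which left 11 because CHAC1 and VLDLR were no longer tested in HeyC2. No paired analysis was possible because each group has 1 library. Depth limits CHAC1 and CTH in HeyC2, TET1 and the filtered genes.

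With the deposited values and no centring, chosen after seeing the data, the member median was 1.09 in HeyC2 and 1.63 in SKOV3, with 31 members higher and 2 lower in HeyC2, and 2 lower there and higher in SKOV3. The all-gene medians on that scale were 1.61 and 0.59, so these counts reflect the scale and are not a result about the members. With the multiplication undone and no centring, also chosen after seeing the data, the medians were -0.57 and 1.21, 1 member was higher in HeyC2, and 14 were lower there and higher in SKOV3. No share of all genes stands beside the counts without centring. With the deposited values centred, HeyC2 medians were -0.52 for all members, -0.60 for the factors and -0.71 for the serine enzymes. They were -0.28 for the synthetases and XPOT and -0.20 for the other cytosolic synthetases. In that setting 2 members, PYCR1 and NUPR1, were higher in HeyC2, and the SKOV3 median of the effectors was 1.54.

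Without the synthetases and XPOT the member medians were -0.74 and 1.21. The limit of 2-fold left 7 members lower in HeyC2 and 6 lower there and higher in SKOV3. At 1.2-fold, 22 had that pattern, 1 was higher in HeyC2 and 5 were lower in SKOV3. No share of all genes past 2-fold or 1.2-fold stands beside these counts, so they show only how the member counts depend on the limit. With a pseudocount of 0.1 the effectors had -0.74 and 2.05, and the other amino acid enzymes -0.99 in HeyC2; with 0.01 these were -0.76, 2.07 and -0.997. With no filter the HeyC2 medians were -0.63 for the factors and -0.70 for the serine enzymes. In that setting 1 member, NUPR1, was higher in HeyC2, and the SKOV3 effectors had 1.54. A minimum of 5 FPKM gave -0.65 for the other amino acid enzymes in HeyC2, and for the mitochondrial synthetases -0.47 in SKOV3 and 0.031 in HeyC2, a change of sign; the cause was not tested. On TPM, 1 member, NUPR1, was higher in HeyC2, the other amino acid enzymes had -0.95 there and the SKOV3 effectors 1.59.

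Centring on the upper quartile gave SKOV3 medians of 1.19 for all members, 1.09 for the factors, 2.01 for the effectors, 1.47 for the serine enzymes, 1.75 for the other enzymes, 0.64 for the synthetases and XPOT, -0.24 for the other cytosolic and -0.18 for the mitochondrial synthetases. Centring on the 500 genes nearest in level gave 1.22, 1.18, 1.56 and 1.86 for all members, the factors, the serine enzymes and the other enzymes, 0.78 for the synthetases and XPOT and -0.17 for the other cytosolic synthetases. After correction for GC content and length, the other cytosolic and the mitochondrial synthetases had -0.31 and -0.49 in SKOV3. The upper-quartile centre took 0.019 off every SKOV3 change in place of 0.192, so it moved each SKOV3 median by the same amount. The cause of the other moves was not tested.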
